A study of Oryza sativa with 12 samples.

Results

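The members are the 413 genes of 38978 in the count table (1.06%) that overlap 8 chromosome segments of rice, named A to H here, which together span 4546 kb of the IRGSP-1.0 genome. The segments were chosen by the read counts of their genes in an OsPIP2-7 knockout line, which differed sharply from the other leaf libraries of the series. Values of that line are therefore given as a description, and where calls in its contrast with wild type are counted they support nothing. Segment A lies on chromosome 1 from 20746733 to 21689199 and holds 72 genes. Segments B (324659 to 379793, 13 genes) and C (17020991 to 18500989, 127 genes) lie on chromosome 3. Segments D (244295 to 799310, 59 genes), E (7873470 to 8018541, 16 genes) and F (24272874 to 24334820, 13 genes) lie on chromosome 4. Segments G (2576587 to 2892003, 14 genes) and H (3961276 to 4952151, 99 genes) lie on chromosome 8. All but 2 of the members lie wholly inside a segment, and 101 carry a gene name while the others are given by locus.

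The study sequenced RNA from leaves of Pusa Basmati-1, an aromatic indica rice, in 12 libraries, 2 in each of 6 groups, all collected 2.5 months after the plants were moved to the greenhouse. In pip2-7 KO the aquaporin gene OsPIP2-7 was knocked out by CRISPR-Cas9 in a line that carries no T-DNA, and in PIP2-7 OE the maize ubiquitin promoter drives a 3xFLAG-tagged OsPIP2-7; both are set against the pair named WT for OsPIP2-7. In pip2-1 KO the gene OsPIP2-1 was knocked out in the same way, and in PIP2-1 OE the same promoter drives a 3xMyc-tagged OsPIP2-1; both are set against the pair named WT for OsPIP2-1. The labels do not say how many plants or independent lines stand behind a group, so p-values measure the spread between libraries, which may be technical.

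PIP2 proteins are plasma membrane channels that let water, and in some cases hydrogen peroxide or carbon dioxide, cross the membrane. Neither target gene lies in a segment. A chromosome segment is a stretch of neighbouring genes that are mostly inherited together. IRGSP-1.0 is the genome of the japonica rice Nipponbare, a variety other than the one sequenced here, and a count of 0 says that no read was assigned to a gene in that library. Whether the DNA of the segments differs between the lines was not tested.

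Library totals ran from 24636211 to 40666127 counts, and levels are given as CPM, a gene's count per unit of TMM-scaled library size. OsPIP2-7 had 158 ± 3.26 CPM in pip2-7 KO and 1707 ± 73.6 CPM in PIP2-7 OE, against 687 ± 6.03 CPM in WT for OsPIP2-7 (SD, n = 2 each). OsPIP2-1 had 138 ± 4.55 CPM in pip2-1 KO and 1900.3 ± 36.6 CPM in PIP2-1 OE, against 132 ± 0.686 CPM in WT for OsPIP2-1 (SD, n = 2 each). An edited gene can still be transcribed, so the level in pip2-1 KO does not check that label. Summed over 5 leaf markers (Rubisco small subunit and photosystem genes), the level was 14240 to 14422 CPM in pip2-7 KO, 10322 to 10485 in PIP2-7 OE and 25405 to 26105 in WT for OsPIP2-7. The same sum was 33098 to 35916 CPM in pip2-1 KO, 19931 to 20088 in PIP2-1 OE and 12894 to 13434 in WT for OsPIP2-1. Floral, vascular and root markers summed to at most 9.98 CPM in any library. In bulk leaves, fewer cells of a type and less RNA per cell cannot be told apart.

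In pip2-7 KO the members fell into a minority that was far apart from every other library and a majority that was not. A gene was called outside all other libraries when both libraries of a group lay at least 2-fold above the highest or below the lowest of the other 10 in CPM plus 0.5. Of the 413 members, 279 passed the filter on low counts, 134 did not, and 51 (12.3%) had no count in any library. Of the 279, 51 were outside all other libraries in pip2-7 KO, 37 above and 14 below (18.3%). Over all 24556 genes that passed the filter the share was 1.53%, or 375 genes, with 1.03% above and 0.501% below. Since these values chose the segments, nothing is read from the difference. The fold to the nearest other library ran down to 2.13 for the members just inside the limit, Os03g0429900 above and Os03g0430000 below. Just outside it were Os04g0486950, 1.90-fold above, and osppdka, 1.78-fold below.

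**Figure D1:**
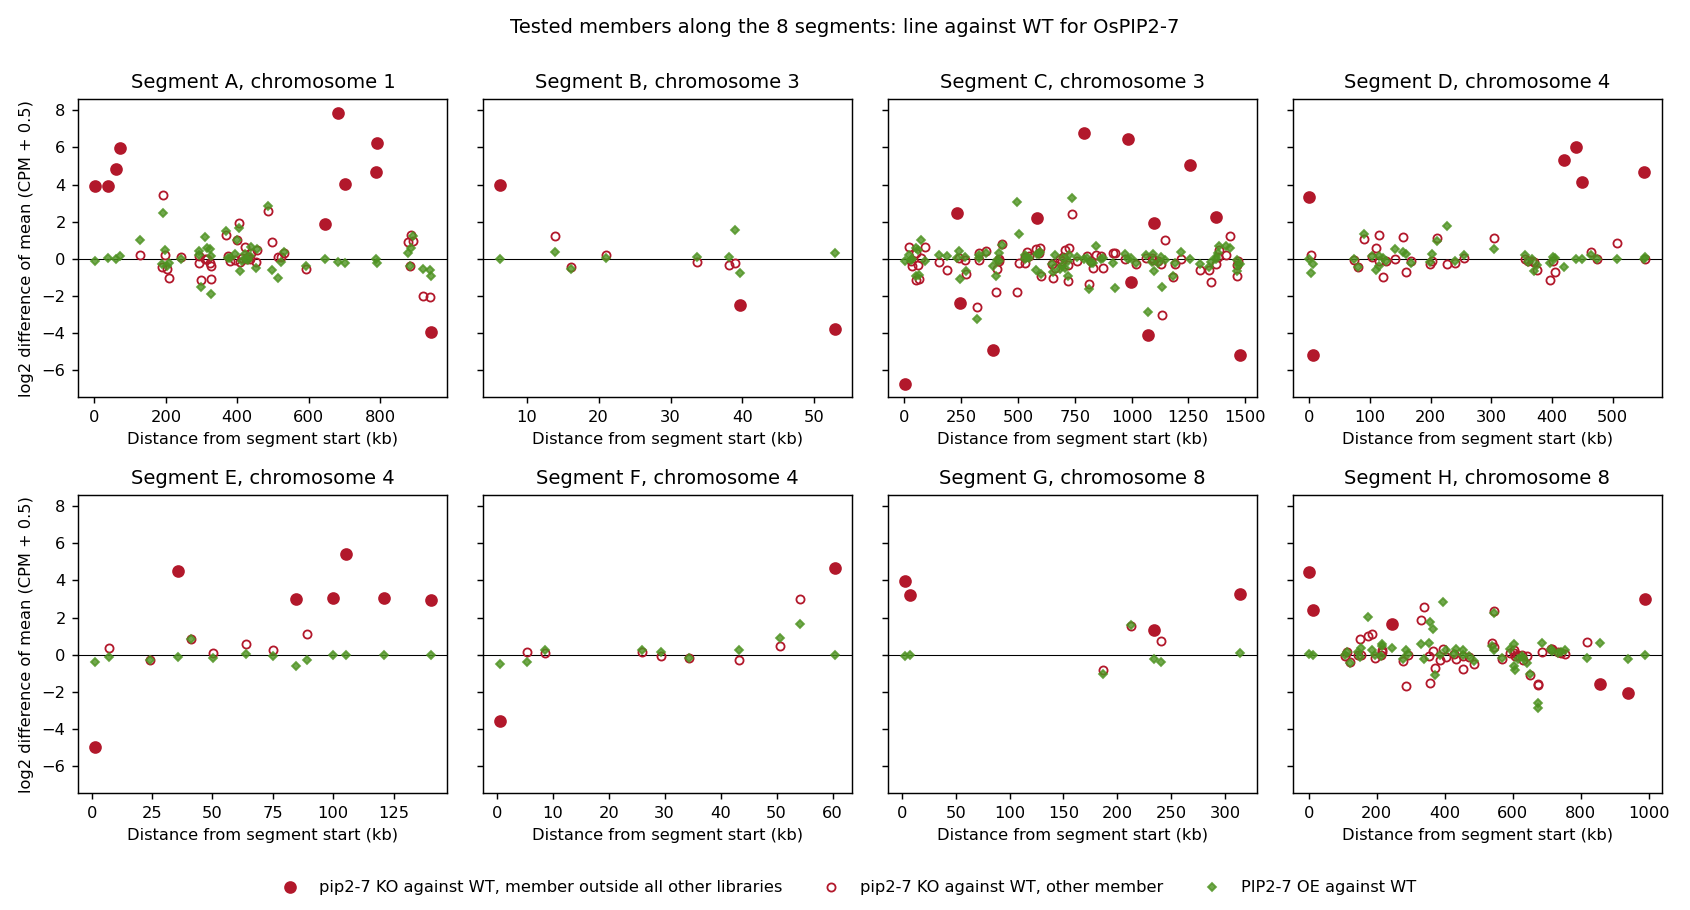
Each panel is 1 segment, with the distance from its start in kb on the x axis and, on the y axis, the log2 difference of mean CPM plus 0.5 from WT for OsPIP2-7. Filled red points are the 51 members outside all other libraries in pip2-7 KO. Open red points are other members in pip2-7 KO and green diamonds are members in PIP2-7 OE. Filled points stand at or next to both ends of each segment, since the borders lie on such members, and lie among open points near 0.

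Among the high members, OsFKBP73 lay farthest from the other libraries, 177-fold above the highest of them in CPM plus 0.5. It is named as an FK506-binding protein gene, a family of peptidyl-prolyl isomerases that help proteins fold. OsFKBP73 (segment A, chromosome 1, 21415022 to 21441440, plus strand) had 148 and 145 CPM in pip2-7 KO, against 0.093 and 0.173 CPM in WT for OsPIP2-7, and reached at most 0.321 CPM in any of the other 10 libraries. Its log2 difference was 10.05 (SE 0.11). OsFKBP46 (21525509 to 21549819, plus strand) had 46.2 and 48.3 CPM in pip2-7 KO, against 0.124 and 0.144 CPM in WT for OsPIP2-7. The pip2-7 KO libraries thus held nearly the whole signal of both genes. The third family member in segment A, OsFKBP57, did not pass the filter and had 0.115 and 0.233 CPM in pip2-7 KO and 0 in the other 10 libraries. Os01g0564400, which lies inside the span of OsFKBP46 on the opposite strand, had 12.8 and 12.1 CPM in pip2-7 KO and no count in any other library. That is at least 278-fold higher in pip2-7 KO than in WT for OsPIP2-7, taking 3 counts over the group as the floor.

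In segment A, 5 neighbouring members that passed the filter, Os01g0562600, OsFKBP73, Os01g0563500, OsFKBP46 and Os01g0564400, were all high. At the other side of the segment, 4 more were high. OsFbox017, which by its name codes for an F-box adaptor of ubiquitin ligases, had 13.5 and 14.9 CPM in pip2-7 KO, against 0 and 0.0288 CPM (1 count) in WT for OsPIP2-7. The ratio was 950, with an exact 95% interval from 170 to 37565 that covers counting error only. Os01g0553600 had 35.2 and 37.4 CPM in pip2-7 KO, against 0.155 and 0.0288 CPM in WT for OsPIP2-7. Os01g0552500 had 8.55 and 7.15 CPM and Os01g0553200 had 6.04 and 7.90 CPM in pip2-7 KO, and neither passed 0.101 CPM elsewhere. Between these 2 clusters, 572 kb held no member outside the other libraries.

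In segment E, rNBS17 (chromosome 4, 7973907 to 7983880, minus strand), named as a nucleotide-binding site gene, the class that holds most plant resistance genes, had 20.6 and 21.4 CPM in pip2-7 KO and no count in the other 10 libraries. It was at least 469-fold higher in pip2-7 KO than in WT for OsPIP2-7. OsWAK30, a wall-associated kinase, a class of receptors that contact the cell wall, had 3.45 and 3.27 CPM in pip2-7 KO and likewise no count elsewhere. These genes and Os04g0219550 and Os04g0219800 formed a run of 4 neighbouring high members, counting only members that passed the filter. Os04g0219000 was the high member of segment E that was clearly present elsewhere, with 33.1 and 30.5 CPM in pip2-7 KO against 3.19 and 3.84 CPM in WT for OsPIP2-7 (log2 3.17, SE 0.10).

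In segment D, OsEXO70FX13, of the EXO70 family whose members tether secretory vesicles, had 30.5 and 30.9 CPM in pip2-7 KO, against 0.31 and 0.231 CPM in WT for OsPIP2-7. PIC22 next to it had 34.7 CPM in both pip2-7 KO libraries, against 0.062 and 0.0288 CPM in WT for OsPIP2-7, a ratio of 775 (exact 95% interval 265 to 3759). Os04g0112100, the next member that passed the filter, had 8.03 and 8.81 CPM in pip2-7 KO and at most 0.0254 CPM elsewhere. These 3 were neighbours among the members that passed the filter. The first member of the segment, Os04g0103601, stood alone at 4.55 and 4.40 CPM in pip2-7 KO and 0 elsewhere. OsFbox179, the second F-box gene among the high members, had 13.5 and 12.7 CPM in pip2-7 KO, against 0.031 and 0.0288 CPM in WT for OsPIP2-7.

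Both terpene synthase genes of the segments, whose products make volatile or defensive terpenoids from isoprenoid precursors, open segment H. TPS (Os08g0167800, chromosome 8, 3961276 to 3965426) had 9.93 and 10.7 CPM in pip2-7 KO and at most 0.0267 CPM elsewhere, at least 230-fold higher than in WT for OsPIP2-7. OsTPS31, its neighbour, had 2.27 and 2.1 CPM in pip2-7 KO and 0 in WT for OsPIP2-7. The authors' counting kept multi-mapping reads, so the split between such neighbouring family members is uncertain. The last member of segment H, Os08g0184300, had 3.77 and 3.09 CPM in pip2-7 KO and no count elsewhere. In segment G the high members were Os08g0145600 with 7.60 and 8.69 CPM, Os08g0146001 with 4.09 and 4.08 CPM, Os08g0150200 with 3.86 and 4.84 CPM and OsSTA205 with 2.1 and 2.16 CPM in pip2-7 KO. The first 3 had at most 0.0987 CPM in any other library, whereas OsSTA205 had 0.465 and 0.663 CPM in WT for OsPIP2-7.

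Among unnamed members of segment C, Os03g0426350 had 76.5 and 77.1 CPM in pip2-7 KO, against 0.155 and 0.26 CPM in WT for OsPIP2-7. Os03g0433733 had 15.05 and 16.9 CPM in pip2-7 KO and no count elsewhere, at least 356-fold higher than in WT for OsPIP2-7. Os03g0429900 (chromosome 3, 18001380 to 18011820, plus strand) had 43.9 and 45.8 CPM in pip2-7 KO, against 0 and 0.0577 CPM in WT for OsPIP2-7, and unlike those 2 genes it was also present in the pip2-1 KO and PIP2-1 OE libraries, as described further on. The remaining high members of segment C, Os03g0415750, Os03g0422900, Os03g0431600 and Os03g0436100, had 1.75 to 6.24 CPM in pip2-7 KO and at most 1.27 CPM in any other library. In segment B the high member was Os03g0105401 with 7.37 and 7.15 CPM in pip2-7 KO and 0 in WT for OsPIP2-7, and in segment F it was Os04g0487000 with 12.3 and 12.6 CPM in pip2-7 KO and at most 0.0288 CPM elsewhere.

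Not each high member was near 0 elsewhere. Os08g0171700 in segment H had 155 and 150 CPM in pip2-7 KO, against 46.8 and 48.4 CPM in WT for OsPIP2-7 and 36.3 to 62.2 CPM over the 10 other libraries (log2 1.67, SE 0.04). Of the 37 high members, 16 had at least 10 counts in both pip2-7 KO libraries and at most 1 count in each of the other 10. Such genes made up 0.121% of the whole table, or 47 genes. Per kb of exon, the high members had a median of 6.30 RPKM in pip2-7 KO (0.735 to 201), against 0.00569 RPKM in WT for OsPIP2-7. The 228 other members that passed the filter had a median of 7.45 RPKM in pip2-7 KO, against 7.13 RPKM in WT for OsPIP2-7.

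The 14 low members had between 0.749 and 276 CPM in each of the other 10 libraries. Os03g0411900, the first gene of segment C (17020991 to 17022755, minus strand), had 0 counts in both pip2-7 KO libraries, against 51.2 and 53.7 CPM in WT for OsPIP2-7 and 26.3 to 77.1 CPM over the 10 other libraries. It was at least 1208-fold lower in pip2-7 KO than in WT for OsPIP2-7, by the same floor. Os04g0485601, the first gene of segment F, had 0 counts in both pip2-7 KO libraries, against 5.46 and 5.42 CPM in WT for OsPIP2-7. These are the 2 members at 0 in pip2-7 KO with at least 10 counts in each other library, among 12 such genes in the whole table (0.0308%). Taking pip2-7 KO replicate 2 alone, without pip2-7 KO replicate 1, the number of members was 4.

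OsbHLH117 (Os01g0566800), a basic helix-loop-helix transcription factor gene and the last gene of segment A, had 0.0288 and 0.0292 CPM (1 count each) in pip2-7 KO, against 7.44 and 7.96 CPM in WT for OsPIP2-7. The ratio of WT to pip2-7 KO was 266 (exact 95% interval 73.3 to 2203). The neighbouring locus Os01g0566701, which carries the same name, had 0.0288 and 0.117 CPM in pip2-7 KO, against 1.64 and 2.05 CPM in WT for OsPIP2-7. Awn3-1 in segment C had 0.115 and 0 CPM in pip2-7 KO, against 15.2 and 17.04 CPM in WT for OsPIP2-7. Os03g0438400, the last gene of segment C, had 0.0288 and 0.0875 CPM in pip2-7 KO, against 18.3 and 20.7 CPM in WT for OsPIP2-7. Os03g0416300 in the same segment had 0.0575 and 0.0292 CPM in pip2-7 KO, against 2.45 and 2.25 CPM in WT for OsPIP2-7. Near the start of segment D, Os04g0103800 had 0.0288 and 0 CPM in pip2-7 KO, against 17.9 and 18.5 CPM in WT for OsPIP2-7. The first gene of segment E, Os04g0217600, had 0.0863 and 0.0583 CPM in pip2-7 KO, against 17.1 and 16.96 CPM in WT for OsPIP2-7.

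Other low members kept part of their level. OsCCR29 in segment H, by its name a cinnamoyl-CoA reductase gene, the enzyme class that leads into lignin building blocks, had 68.4 and 61.0 CPM in pip2-7 KO, against 276 and 268 CPM in WT for OsPIP2-7 (log2 -2.08, SE 0.04). It held 209 to 276 CPM over the 10 other libraries. Os03g0430000, which follows Os03g0429900 in segment C, had 18.4 and 18.5 CPM in pip2-7 KO, against 45.2 and 43.5 CPM in WT for OsPIP2-7. Os08g0182400 in segment H had 6.07 and 5.89 CPM in pip2-7 KO, against 18.9 and 19.0 CPM in WT for OsPIP2-7. Os03g0431200 in segment C had 3.45 and 3.94 CPM in pip2-7 KO, against 73.4 and 71.7 CPM in WT for OsPIP2-7, and had the widest spread of the 14 over the 10 other libraries, from 9.60 to 90.4 CPM, taken as highest over lowest in CPM plus 0.5. In segment B, Os03g0106200 had 4.80 and 4.32 CPM and Os03g0106400 had 0.0288 and 0.0875 CPM in pip2-7 KO, against 27.5 and 28.1 CPM and 7.53 and 6.60 CPM in WT for OsPIP2-7. Over the 10 other libraries the highest level of a low member was a median of 1.60-fold its lowest in CPM plus 0.5. The median over all genes that passed the filter was 1.84-fold. For 10 of the 14 low members it was under 2-fold, against 58.3% of all genes that passed the filter. The rule for low members uses the lowest of these 10 libraries, so nothing is read from the difference.

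**Figure D2:**
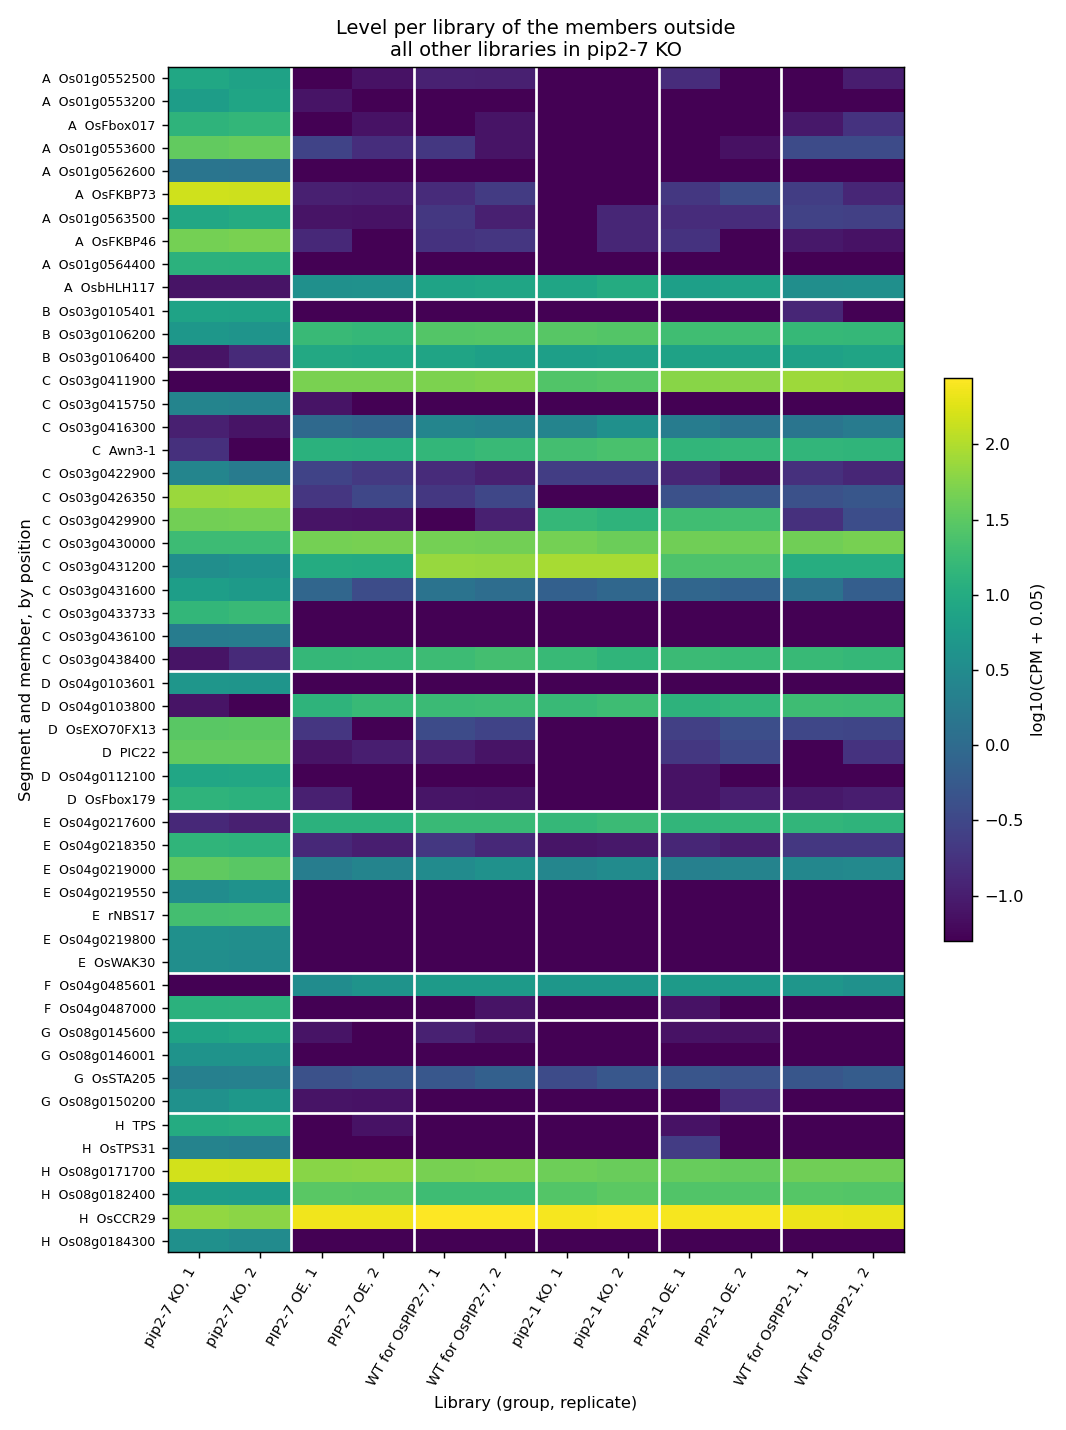
Each line is 1 of the 51 members outside all other libraries in pip2-7 KO, in order along segments A to H, each column is 1 library, with the pip2-7 KO pair at the left, and colour gives log10 of CPM plus 0.05. The pip2-7 KO columns stand apart from the other 10 in each line, most high members are dark elsewhere, and Os03g0429900 is bright in the pip2-1 KO and PIP2-1 OE columns too.

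Segment A held 9 high and 1 low members, B 1 and 2, C 7 and 6, D 5 and 1, E 6 and 1, F 1 and 1, G 4 and 0, and H 4 and 2. The high members were 16 on the plus and 21 on the minus strand, and the low ones 4 and 10. Of the 51, 11 overlapped an annotated gene on the opposite strand, 0 overlapped a gene on the same strand, and 11 of the 37 high and 3 of the 14 low members had a gene name. Of all genes that passed the filter, 12353 were on the plus and 12203 on the minus strand, and 30.9% had a name. Overlaps were not counted over all genes, and nothing is read from these counts.

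Each segment border coincides with the start or end of a member outside all other libraries. The pattern at the edges was thus set by the borders, and nothing is read from it. At the end of D that member was OsFbox179 (793538 to 799310). Os04g0113100 (796076 to 798794), which lies within the span of OsFbox179 on the opposite strand, had 14.6 and 15.2 CPM in pip2-7 KO. It had 15.1 and 14.97 CPM in WT for OsPIP2-7. The next gene past that edge to pass the filter, Os04g0113800, had 27.9 and 28.1 CPM in pip2-7 KO and at most 0.303 CPM in the other libraries, so the pattern did not stop at the chosen border. Among the 311 genes within 20 that passed the filter on either side of the segments, 15 (4.82%) were outside all other libraries. The borders that place these genes were chosen on the same values, so nothing is read from this share either. Over the whole genome 324 genes outside the segments had the pattern, 1.33% of those that passed the filter. Of these, 80 were on chromosome 1, 61 on chromosome 3, 42 on chromosome 4 and 13 on chromosome 8. Each of the other chromosomes held 5 to 24. The chromosomes differ in size. With the segments included, 3488, 3168, 2122 and 1589 genes passed the filter on chromosomes 1, 3, 4 and 8, and 1302 to 2884 on each other chromosome. Within 500 kb of OsPIP2-7 on chromosome 9, 0 of 92 genes that passed the filter were outside all other libraries in pip2-7 KO. The share over all genes was 1.53%.

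The same count was taken for each of the other groups. The 37 members high in pip2-7 KO could not lie above all libraries in another group, nor the 14 low ones below. The choice of segments thus limits these shares, and they are not set against that of pip2-7 KO. In PIP2-7 OE 5 members (1.79%) lay outside all other libraries, against 1.23% of all genes. The count was 3 (1.08%) in pip2-1 KO, against 1.27% of all genes, and 3 (1.08%) in PIP2-1 OE, against 0.538% of all genes. No member lay outside in WT for OsPIP2-7 (0.326% of all genes) or in WT for OsPIP2-1 (0.2%). A further count left pip2-7 KO aside. It took genes with at least 10 counts in both libraries of some groups and at most 1 count in both libraries of each remaining group. Of the 413 members 0 had this pattern, against 0.216% of the whole table. The 0 rests on the limit of 1 count. Os03g0429900 passed 10 counts in both libraries of pip2-1 KO and of PIP2-1 OE. It missed the lower limit through WT for OsPIP2-7 replicate 2 and both WT for OsPIP2-1 libraries, at 0.0577 to 0.331 CPM. The members outside in PIP2-7 OE were Os03g0421000, Os03g0421100 and Os04g0107700 above (0.692% of all genes) and Os03g0429000 and Os08g0179000 below (0.542%). Those in pip2-1 KO were SRZ3 and the OsbHLH117 locus Os01g0566701 above (0.595%) and OsGSTU6 below (0.676%). Os03g0429000, Os08g0148267 and OsRLCK125 were above in PIP2-1 OE (0.509%).

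**Figure D3:**
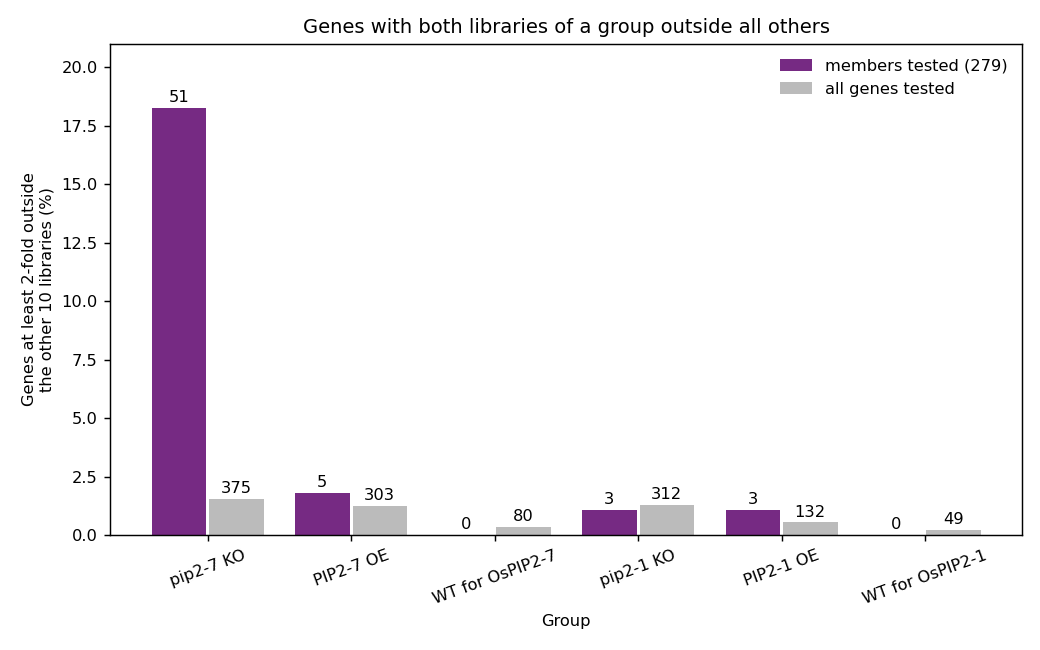
Bars give, for each of the 6 groups, the percentage of genes whose libraries both lie at least 2-fold outside the other 10 libraries, for the 279 members that passed the filter and for all genes that passed it, with the number of genes above each bar. The members' bar is 18.3% for pip2-7 KO and at most 1.79% for the other 5 groups. The pip2-7 KO values chose the segments, so nothing is read from that contrast.

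The other members that passed the filter are described next. In edgeR's quasi-likelihood test, which called a gene at an adjusted p under 0.05, 188 of the 269 members tested in the experiment with OsPIP2-7 were called in pip2-7 KO against WT for OsPIP2-7, 104 higher and 84 lower. Of all genes 63.4% were called, 32.1% higher and 31.3% lower, and nothing is read from these counts, since the contrast chose the segments. Calls of at least 2-fold covered 106 members (39.4%), where the share of all genes was 20.2%. Leaving aside the 51, 137 of 218 members were called (62.8%), 55 of them at least 2-fold (25.2%), and 127 lay within 1.5-fold of WT for OsPIP2-7 (58.3%). The 51 were taken out by the same values, so these shares are not set against those of all genes.

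Several members with known functions were not outside the other libraries by that rule. D14L, the receptor of karrikins, had 209 and 205 CPM in pip2-7 KO and 133 and 134 CPM in PIP2-7 OE, against 89.1 and 87.1 CPM in WT for OsPIP2-7. AOC, allene oxide cyclase of jasmonate synthesis, had 44.4 and 45.1 CPM in pip2-7 KO, against 85.8 and 85.4 CPM in WT for OsPIP2-7. OsELF3.2, of the evening complex of the circadian clock, had 23.4 and 21.6 CPM in pip2-7 KO and 27.4 and 26.6 CPM in PIP2-7 OE, against 11.4 CPM in both WT for OsPIP2-7 libraries. OsCAX1a, named as a vacuolar cation/proton exchanger gene, had 81.9 and 79.0 CPM in pip2-7 KO and 45.5 and 47.1 CPM in PIP2-7 OE, against 177 and 170 CPM in WT for OsPIP2-7. The chaperone gene Hsp90 in segment D had 4.29 and 3.76 CPM in pip2-7 KO, against 3.91 and 5.54 CPM in WT for OsPIP2-7, and the groups overlapped. In the first 4 of these genes WT for OsPIP2-1 lay between pip2-7 KO and WT for OsPIP2-7, with 112 and 113 CPM for D14L, 66.6 and 63.7 CPM for AOC, 18.6 and 18.3 CPM for OsELF3.2 and 102 and 96.95 CPM for OsCAX1a. The log2 difference of OsCAX1a in pip2-7 KO was -1.11 against its own WT and -0.30 against WT for OsPIP2-1. These genes were picked for their known roles after their values had been seen.

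By the families that gene names give, both terpene synthase genes and both FKBP genes that passed the filter were high. So were 2 of 8 F-box or ubiquitin ligase genes, 1 of 3 kinase genes and the only gene with a resistance-gene name. Of the transporter or channel genes 0 of 2 were high, and of the heat shock or chaperone genes 0 of 3. Over all genes 1.03% lay above all other libraries. The high genes of these families passed the filter through their pip2-7 KO counts. They were too low to be tested in the experiment with OsPIP2-1. Since these values chose the segments, nothing is read from these counts. Of the 16 transcription factor genes that passed the filter, 0 were high. Only 1 of them, OsbHLH117 (Os01g0566800), lay below all other libraries, where the share of all genes was 0.501%. In PIP2-7 OE 5 of 14 transcription factor genes tested were called higher and 8 lower, where 33.4% of all genes were called higher and 33.7% lower. In pip2-1 KO 6 of 14 were called higher and 4 lower, with 30.5% and 31.9% over all genes. PIP2-1 OE had 5 of 14 higher and 4 lower, with 23.2% and 20.9% over all genes.

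The remaining comparisons hold no pip2-7 KO library, although those of PIP2-7 OE and of the WT pairs share the WT for OsPIP2-7 libraries with the contrast that chose the segments. In PIP2-7 OE against WT for OsPIP2-7, 157 of 269 members tested were called (58.4%), 80 higher and 77 lower, while over all genes 67.1% were called, 33.4% higher and 33.7% lower. The 269 include members that passed the filter through pip2-7 KO and were near 0 in both groups compared, and without the 51 the count was 140 of 218 (64.2%). Calls of at least 2-fold covered 52 of the 269 (19.3%), against 22.1% of all genes. In pip2-1 KO against WT for OsPIP2-1, 136 of 234 were called (58.1%), 67 higher and 69 lower, while over all genes 62.4% were called, 30.5% higher and 31.9% lower. At least 2-fold calls covered 50 members (21.4%), against 22% of all genes. PIP2-1 OE against WT for OsPIP2-1 gave 100 of 234 members (42.7%), 47 higher and 53 lower, while over all genes 44.1% were called, 23.2% higher and 20.9% lower. There 24 members (10.3%) changed at least 2-fold, against 9.4% of all genes. WT for OsPIP2-7 against WT for OsPIP2-1 gave 134 of 279 members (48.0%), 68 higher and 66 lower, while over all genes 56.6% were called, 28.1% higher and 28.5% lower. Without the 51 it was 121 of 228 (53.1%), and in a fit of the 4 WT libraries alone, with their own filter, 128 of 225 members (56.9%) were called, against 60.1% of all genes. The 2-fold calls numbered 36 (12.9%), against 15.9% of all genes. None of these shares was tested against its background. Of the 37 members high in pip2-7 KO, 30 had too few counts to be tested in the experiment with OsPIP2-1. The median absolute log2 difference was 0.38 for members in PIP2-7 OE and 0.46 over all genes, 0.44 and 0.45 in pip2-1 KO, and 0.24 and 0.26 in PIP2-1 OE.

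Among members with at least 5 CPM in the higher group, Os03g0429900 had the largest rise in both lines of OsPIP2-1. It had 15.6 and 13.7 CPM in pip2-1 KO and 19.3 and 20.4 CPM in PIP2-1 OE, against 0.114 and 0.331 CPM in WT for OsPIP2-1. In PIP2-7 OE it had 0.0285 and 0.0267 CPM, against 0 and 0.0577 CPM in WT for OsPIP2-7. The 3 lines pip2-7 KO, pip2-1 KO and PIP2-1 OE were thus high and the remaining 3 groups near 0, and the libraries of those 2 sets did not overlap. The log2 difference was 5.89 (SE 0.21, edgeR adjusted p = 1.8e-23) in pip2-1 KO and 6.33 (SE 0.20, edgeR adjusted p = 5.9e-25) in PIP2-1 OE, which share their WT libraries. In PIP2-7 OE it was -0.12 (SE 1.29, edgeR adjusted p = 0.94).

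In PIP2-7 OE against WT for OsPIP2-7 the largest rises by the same limit were those of Os03g0425300, Os03g0421000 and Os08g0174800. Os03g0421000 had 78.6 and 82.8 CPM in PIP2-7 OE, against 9.55 and 9.28 CPM in WT for OsPIP2-7 (log2 3.08, SE 0.06, edgeR adjusted p = 2.30e-36), and between 2.27 and 9.55 CPM in the 10 libraries of the other groups. Os08g0174800 had 18.2 and 17.1 CPM in PIP2-7 OE, against 2.42 and 1.73 CPM in WT for OsPIP2-7 (log2 3.07, SE 0.13, edgeR adjusted p = 1.64e-24). It also rose in PIP2-1 OE, to 16.0 and 14.3 CPM, against 2.99 and 4.20 CPM in WT for OsPIP2-1 (log2 2.04, SE 0.14, edgeR adjusted p = 2.75e-14), so both overexpression lines stood above the other 4 groups.

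The largest falls in PIP2-7 OE were those of GL3.2, a gene named for grain length, and of Os08g0179150 and Os08g0179000, which overlap on the same strand and can lose shared reads. GL3.2 had 0.0571 and 0.241 CPM in PIP2-7 OE, against 5.74 and 5.48 CPM in WT for OsPIP2-7 (log2 -5.20, SE 0.32, edgeR adjusted p = 7.54e-19). Os08g0179000 had 3.91 and 3.08 CPM in PIP2-7 OE, against 30.0 and 27.5 CPM in WT for OsPIP2-7 (log2 -3.06, SE 0.10, edgeR adjusted p = 1.76e-28). Os08g0179150 fell by 3.43 on the log2 scale (SE 0.24, edgeR adjusted p = 4.29e-17). With WT for OsPIP2-1 in place of the line's own WT, the log2 difference was -3.53 for GL3.2, -1.30 for Os08g0179000 and -1.57 for Os08g0179150.

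In pip2-1 KO against WT for OsPIP2-1, Os03g0431200 had 89.6 and 90.4 CPM in the line, against 10.8 and 10.6 CPM in WT for OsPIP2-1 (log2 3.07, SE 0.07, edgeR adjusted p = 3.97e-30). WT for OsPIP2-7, however, had 73.4 and 71.7 CPM, and with that pair as the base the log2 difference of pip2-1 KO was 0.31. The OsbHLH117 locus Os01g0566701 rose by 3.38 on the log2 scale (SE 0.24, edgeR adjusted p = 1.23e-14). Among the falls, OsGSTU6, a tau-class glutathione transferase gene, had 0.685 and 1.35 CPM in pip2-1 KO, against 11.9 and 11.2 CPM in WT for OsPIP2-1 (log2 -3.55, SE 0.20, edgeR adjusted p = 3.62e-17). Os08g0174100 (log2 -4.42, SE 0.27) and Os08g0174300 (log2 -3.37, SE 0.17), near each other in segment H, fell too, with edgeR adjusted p = 1.02e-16 and 3.32e-18. With WT for OsPIP2-7 as the base, the log2 difference was 1.68 for Os01g0566701, -1.93 for OsGSTU6, -2.72 for Os08g0174100 and -1.57 for Os08g0174300.

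In PIP2-1 OE the largest falls were those of Os03g0425300, OsVPE2 and OsbZIP64, and the 2 WT pairs differed in the same genes. Os03g0425300 had 8.60 and 7.53 CPM in PIP2-1 OE, against 63.8 and 68.2 CPM in WT for OsPIP2-1 (log2 -3.04, SE 0.08, edgeR adjusted p = 1.68e-26), and the log2 difference was -0.47 with WT for OsPIP2-7 as the base. WT for OsPIP2-7 had 11.4 and 10.96 CPM, a log2 difference of -2.56 from WT for OsPIP2-1 (SE 0.07, edgeR adjusted p = 7.22e-37). PIP2-7 OE had 111 and 112 CPM, against that low WT level (log2 3.30, SE 0.05, edgeR adjusted p = 2.00e-40), and with WT for OsPIP2-1 as the base its log2 difference was 0.76.

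OsVPE2, a vacuolar processing enzyme, the class of cysteine proteases that mature vacuolar proteins, showed the same contrast between the WT pairs. It had 3609 and 3684 CPM in pip2-7 KO and 4420 and 4526 CPM in PIP2-7 OE, against 615 and 627 CPM in WT for OsPIP2-7. In the other experiment it had 429 and 442 CPM in pip2-1 KO and 524 and 549 CPM in PIP2-1 OE, against 2152 and 2250 CPM in WT for OsPIP2-1. The fall in PIP2-1 OE was -2.04 on the log2 scale (SE 0.04, edgeR adjusted p = 5.78e-32), and with WT for OsPIP2-7 as the base it was -0.21. The groups with high OsVPE2, which are also those with high Os03g0425300 and OsbZIP64, are the 3 groups whose summed leaf markers were lowest, between 10322 and 14422 CPM, and the part of that in the result was not tested.

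OsbZIP64, a bZIP transcription factor gene, had 86.1 and 88.1 CPM in pip2-7 KO and 84.4 and 78.4 CPM in PIP2-7 OE, against 16.9 and 16.1 CPM in WT for OsPIP2-7. It had 12.1 and 15.2 CPM in pip2-1 KO and 26.6 and 25.4 CPM in PIP2-1 OE, against 66.8 and 60.7 CPM in WT for OsPIP2-1. Its fall in PIP2-1 OE (log2 -1.29, SE 0.07, edgeR adjusted p = 4.20e-17) turned into a rise of 0.65 with WT for OsPIP2-7 as the base. The rise of Os08g0148267 in the same line had the same direction with either base, at 70.1 and 68.2 CPM in PIP2-1 OE, against 17.3 and 17.1 CPM in WT for OsPIP2-1 and 31.1 and 30.8 CPM in WT for OsPIP2-7 (log2 2.01, SE 0.06, edgeR adjusted p = 6.42e-25, against its own WT, and 1.16 against the other).

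Between the WT pairs, which the labels give the same genotype, WT for OsPIP2-7 was higher in Os03g0431200 (log2 2.76, SE 0.07), Os08g0179150 (1.84, SE 0.20) and Os08g0179000 (1.74, SE 0.09). It was lower in Os03g0412400 (log2 -2.60, SE 0.14), Os03g0425300 and OsbZIP64 (log2 -1.94, SE 0.07). The largest edgeR adjusted p among these 6 was 9.28e-12. Os03g0412400 had 2.11 and 2.54 CPM in WT for OsPIP2-7, against 14.9 and 13.5 CPM in WT for OsPIP2-1. The lowest level of any of these 6 in a WT library was 1.44 CPM.

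**Figure D4:**
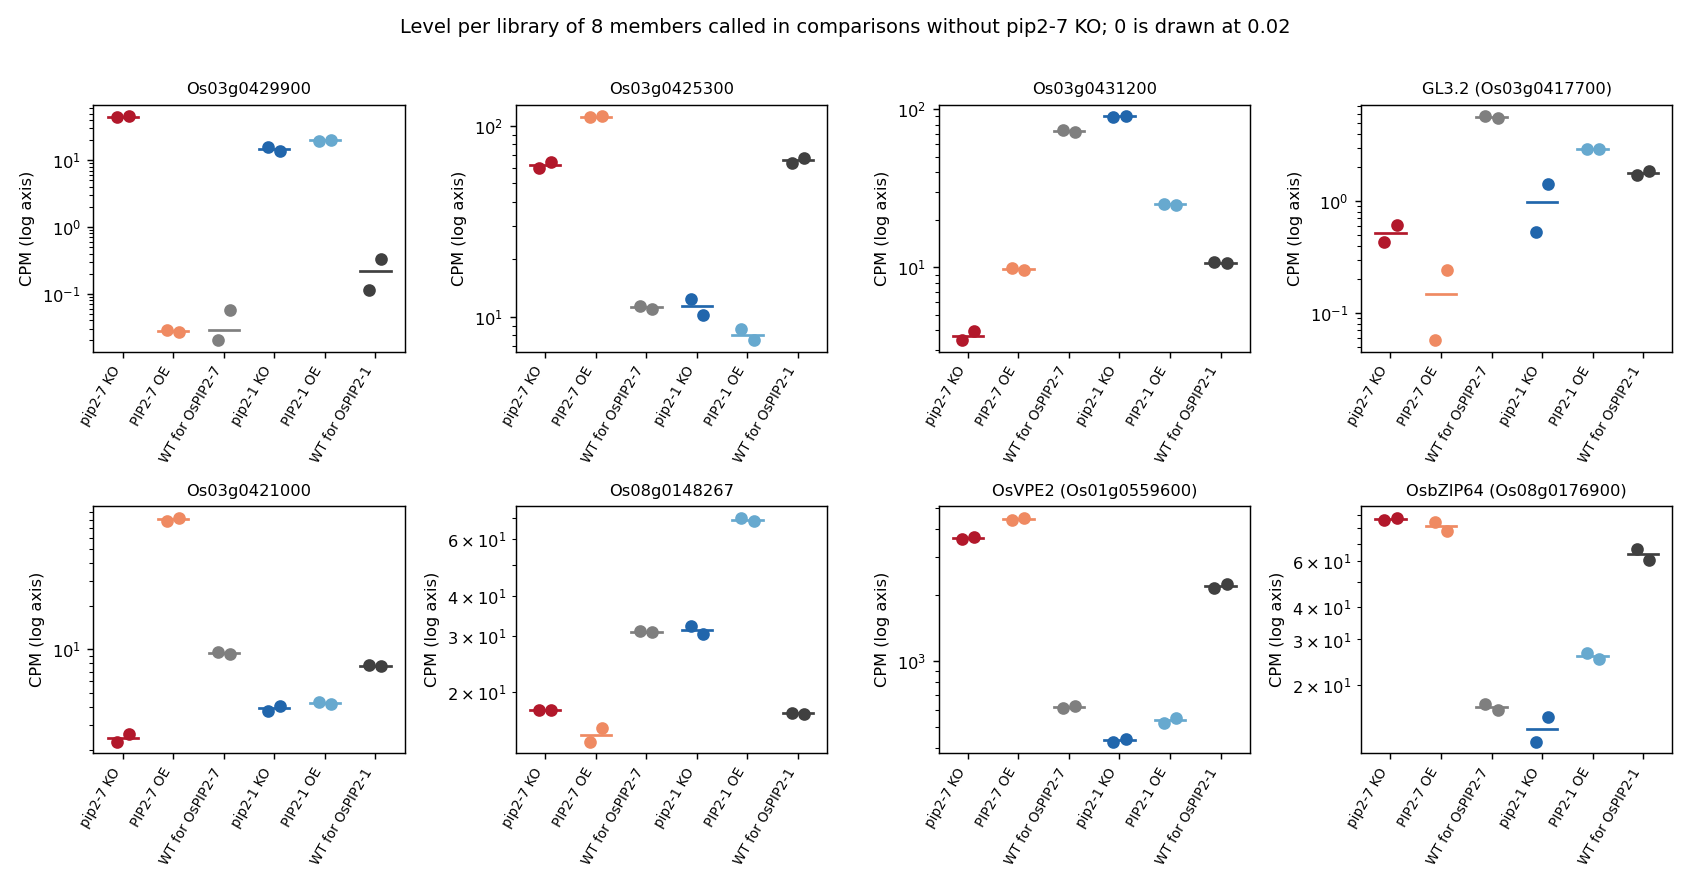
Each panel is 1 member called in a comparison that holds no pip2-7 KO library, with CPM on a log axis, 1 point per library and a bar at the mean of each group's 2 libraries. Os03g0429900 is high in 3 lines and near 0 in the others, Os03g0421000 is high in PIP2-7 OE alone, and OsVPE2 and OsbZIP64 are high in pip2-7 KO, PIP2-7 OE and WT for OsPIP2-1.

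The 14 members that were low in pip2-7 KO could be tested in each of these comparisons. In PIP2-7 OE, whose WT libraries are those of the contrast that chose them, 2 were called higher and 11 lower, where 33.4% of all genes were called higher and 33.7% lower. In pip2-1 KO 7 were called higher and 1 lower, with 30.5% and 31.9% over all genes. PIP2-1 OE had 5 higher and 2 lower, with 23.2% and 20.9% over all genes. Between the WT pairs 8 were higher and 2 lower in WT for OsPIP2-7, with 28.1% and 28.5% over all genes. Calls of at least 2-fold covered 3 of the 14 in PIP2-7 OE (22.1% of all genes) and 3 in pip2-1 KO (22% of all genes). They covered 1 in PIP2-1 OE (9.4% of all genes) and 2 between the WT pairs (15.9% of all genes). The 37 high members were at or near 0 in most other libraries, and no count of calls is given for them.

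In the authors' deposited table for the lines of OsPIP2-7, 136 of the 413 members (32.9%) were marked significant for KO against WT, against 23.9% of all genes, and 100 (24.2%) for OE against WT, against 26.2% of all genes. The first of these contrasts is the one that chose the segments. Of the 37 high members, 27 were marked significant for KO against WT in the authors' deposited table, and 22 had an infinite log2 value there, since the authors' value was 0 in WT. Among the 14 low members 6 were significant and 4 had an infinite log2 value in the authors' deposited table. Some members differed between the 2 sources. Os03g0431600 and Os03g0436100, high by counts, had a log2 of 0.085 and 0 there and were not significant. Os08g0182400 had a negative infinite value that was not significant, although the pip2-7 KO libraries held 211 and 202 counts of it. For OsFKBP73 the authors' deposited table gives a log2 of 9.33 and for OsCCR29 -1.56, with a q-value of 0.00027 for each.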

How the data were processed

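Raw read counts per gene in 12 leaf libraries were deposited by the authors; per the file headers they come from featureCounts 1.4.0 on IRGSP-1.0 with Ensembl Plants release 52, counted on the reverse strand, keeping multi-mapping reads and without the option that assigns a read to overlapping genes. Trim Galore, HISAT2 and Cufflinks are named without versions in the submitters' processing notes. The authors' deposited comparison tables (Cuffdiff 2.2.1, per the submitters' processing notes) gave gene names, log2 fold changes and q-values. The segments, the members, the lists and the naming rule for genes rest on earlier results of these data, which were known when they were chosen. The naming rule took the largest rises and falls of each segment and comparison among genes called with at least 5 CPM in the higher group.

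Counts were analysed with edgeR 4.0.16 in R 4.3.3: filterByExpr, TMM, glmQLFit with robust estimation, glmQLFTest, Benjamini-Hochberg adjustment over all genes tested, threshold 0.05. The 6 libraries of an experiment were fitted together; the WT pairs were compared, and differences between experiments tested, in a fit of all 12. Each SE was back-calculated from the quasi-likelihood F. Column headers of the WT libraries name the set, which was matched to the lines of that set. Between the 2 replicates of a group, chi-square over its degrees of freedom was 2.50 to 7.69, above what counting error gives, and all 12 libraries were kept as separate. At the smallest library total 1 CPM stands for 24.6 counts. Bounds and intervals cover counting error only. Alternatives were DESeq2 1.42.0, RLE scaling, no filter, other WT libraries, a replicate block and leaving out each library. The scripts were tested on simulated data. The RefSeq gene table given matched 0 members, and no sequence was used here.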

Additional observations from a re-analysis of the deposited data

Results flagged for a closer look

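For 10 members named above, the change in PIP2-7 OE and the change in PIP2-1 OE, each against its own WT, differed in edgeR's test of the difference itself, fitted on all 12 libraries. These members had been named for the largest changes in either line, so nothing is read from all 10 passing that test. The share of all genes that passed it was not counted. The values below are the change in PIP2-7 OE minus the change in PIP2-1 OE on the log2 scale. The difference was 6.36 for Os03g0425300 (adjusted p = 7.58e-49), 4.88 for OsVPE2 (adjusted p = 1.07e-59), 3.96 for Os03g0421000 (adjusted p = 2.56e-32) and 3.59 for OsbZIP64 (adjusted p = 3.37e-36). Os03g0421000 was high in PIP2-7 OE against every other group. The other 3 were lower in WT for OsPIP2-7 than in WT for OsPIP2-1, and with WT for OsPIP2-1 as the base the log2 change of Os03g0425300 in PIP2-7 OE was 0.76. The difference was 1.06 for Os08g0174800 (adjusted p = 2.37e-05), which was higher in both lines.

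On the negative side it was -6.43 for Os03g0429900 (adjusted p = 0.0028), -5.87 for GL3.2 (adjusted p = 2.98e-17), -3.72 for Os08g0179150 (adjusted p = 2.04e-14), -3.50 for Os08g0179000 (adjusted p = 1.23e-27) and -3.07 for Os08g0148267 (adjusted p = 1.11e-34). Os03g0429900 was high in PIP2-1 OE and near 0 in PIP2-7 OE. Os08g0148267 had 14.01 and 15.5 CPM in PIP2-7 OE and 70.1 and 68.2 CPM in PIP2-1 OE. WT for OsPIP2-7 was higher than WT for OsPIP2-1 in GL3.2 (log2 1.64), Os08g0179150 (1.84), Os08g0179000 (1.74) and Os08g0148267 (0.85). It was lower in Os03g0429900 (log2 -2.88), which was near 0 in both pairs. That gap between the WT pairs enters each of these differences.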

How the results depend on the processing

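Counting calls of at least 2-fold in place of all calls gave 106 members in pip2-7 KO, 52 in PIP2-7 OE, 50 in pip2-1 KO, 24 in PIP2-1 OE and 36 between the WT pairs. With a library left out, the counts of called members ran from 167 to 179 in pip2-7 KO, 139 to 146 in PIP2-7 OE, 118 to 132 in pip2-1 KO, 77 to 89 in PIP2-1 OE and 106 to 124 between the WT pairs, where a lone library is assumed to vary like the other groups. Without pip2-7 KO replicate 1, 4 members were at 0 in pip2-7 KO instead of 2 (range 2 to 4), 54 were outside all other libraries (54 without either) and 16 were on against at most 1 count elsewhere. At 1.5-fold 62 members were outside all other libraries and at 4-fold 38. With the other WT pair as the base, the log2 difference of Os08g0148267 in pip2-7 KO reversed to 0.036, that of OsbZIP64 in PIP2-1 OE reversed to 0.65 (edgeR adjusted p = 5.07e-11) and that of Os08g0179150 in pip2-7 KO was -0.08, no longer called; the cause was not tested. Every other value of the named genes kept its direction and its side of the threshold under the alternatives run, 251 in the comparisons without pip2-7 KO and 383 in pip2-7 KO. DESeq2, RLE scaling, no filter, other sets of libraries and other WT libraries left each count of called members within 1.5 times. Same-numbered replicates were not paired (correlation of deviations -0.066 to 0.033), and with the replicate block 188, 155, 133, 100 and 130 members were called in the 5 comparisons in the order above.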

Other observations

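The members that were high in pip2-7 KO had some counts elsewhere. For 33 of them that had at most 0.7 CPM in each of the other 10 libraries, the summed level was 568 and 576 CPM in pip2-7 KO. It was 1.57 and 1.28 CPM in PIP2-7 OE and 1.92 and 1.90 CPM in WT for OsPIP2-7. The libraries of the other experiment had 0.529 and 0.846 CPM in pip2-1 KO, 2.11 and 2.12 CPM in PIP2-1 OE, and 2.27 and 2.47 CPM in WT for OsPIP2-1. These sums rest on 17 to 97 counts per library outside pip2-7 KO, and 17 to 30 of the 33 genes had no count in a given library. The lowest sums were those of the pip2-1 KO libraries. For 91 genes outside the segments with the same pattern the sum was 3532 and 3596 CPM in pip2-7 KO and 6.01 to 10.2 CPM elsewhere.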
